A study of Mus musculus with 10 samples.

Results

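The 10 genes described here are Fn1, Tagln, Col1a1, Col1a2, Col3a1, Acta2, Vim, Thy1, Sparc and Lox. They encode matrix proteins, matrix enzymes, contractile proteins and fibroblast surface or filament proteins, and they were listed together as a panel whose reads could mark residual feeder cells. They are 10 of the 35427 genes of the annotation and 10 of the 14105 genes that had at least 20 estimated reads in at least 1 library. All 10 passed that filter, and 8 of them had at least 20 reads in every library. The exceptions were Tagln, which had 5 reads in its lowest line, and Acta2, which had 13.

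RNA was sequenced from 10 male mouse embryonic stem cell (ESC) lines labelled C57BL/6, of which 4 were Tdg-/-, 3 Tdg+/- and 3 wt, the last labelled Tdg+/+. Tdg encodes thymine DNA glycosylase, an enzyme that removes oxidised forms of methylated cytosine from DNA. The lines came from matings of Tdg+/- males with Tdg+/- females and were derived on mitotically inactivated murine feeder cells. Before RNA was taken they were grown without feeder cells for 3 passages. All 10 were grown on gelatin in a serum-free medium with 2i and LIF, the inhibitors and the cytokine that hold ESCs in the naive state, and none was treated. Each line gave 1 library, the labels do not say which lines came from 1 mating, and p-values therefore measure the spread between lines of a genotype.

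Feeder cells are growth-arrested fibroblasts that support ESCs during derivation and lay down a collagen-rich matrix. Fibroblasts secrete type I and type III collagens, which lysyl oxidase (Lox) cross-links outside the cell, and when activated they make smooth muscle actin (Acta2) and transgelin (Tagln). Fibronectin (Fn1), the matricellular protein SPARC (Sparc) and the intermediate filament protein vimentin (Vim) are also made by many other cell types, ESCs and early embryonic cells among them. In a bulk library, fewer cells of a type and less RNA per cell cannot be told apart.

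The libraries held 31095285 to 39916039 reads assigned to genes. Tdg itself was at 7.76 to 10.6 CPM (read counts scaled to library size, with TMM factors over the 10 lines) in Tdg-/- lines, at 40.4 to 45.9 CPM in Tdg+/- lines and at 86.5 to 93.2 CPM in wt lines, in the order of the labels. Tdg-/- line 1 stood apart from the other Tdg-/- lines: its mean chi-square per gene against them was 87.0 to 142, against 18.95 to 72.0 for every other pair of lines of 1 genotype. The next farthest was wt line 1, at 53.9 and 72.0 against the other wt lines, which stood at 20.8 from each other. Mitochondrial genes took 0.899% of the reads of wt line 1, the lowest share of the 10 lines, against 1.60% and 1.68% in wt lines 2 and 3. The summed level of 12 naive pluripotency genes was 3902 to 4177 CPM in Tdg-/- lines, 3858 to 4205 CPM in Tdg+/- lines and 3763 to 4130 CPM in wt lines.

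The panel did not behave as a single group. Sparc, Fn1 and Vim were abundant in every line and together made up 95.1% to 99.5% of the summed CPM of the 10 genes. Col1a1, Col1a2, Col3a1, Lox, Acta2 and Tagln were low in every line, summing to 6.30 to 62.9 CPM, with coefficients of variation within a genotype of 19.2% to 80.9%, against 7.21% to 35.4% for the other 4 genes. Thy1 stayed near 1 CPM. This division into 3 abundant genes, 6 low genes and Thy1 was made after the values were seen, so it is a description and carries no test. On the scale per transcript length (TPM), the means over the 10 lines were 540.2 for Sparc, 118 for Vim and 89.0 for Fn1, and then 6.12 for Col3a1, 1.78 for Lox, 1.29 for Thy1, 1.01 for Acta2, 0.915 for Col1a2, 0.769 for Tagln and 0.365 for Col1a1. The ranges of Vim (73.6 to 179 TPM) and Fn1 (48.7 to 133 TPM) overlapped across lines, as did those of all neighbours from Col3a1 downward, so only the steps from Sparc to Vim and from Fn1 to Col3a1 were larger than the spread between lines.

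**Figure D1:**
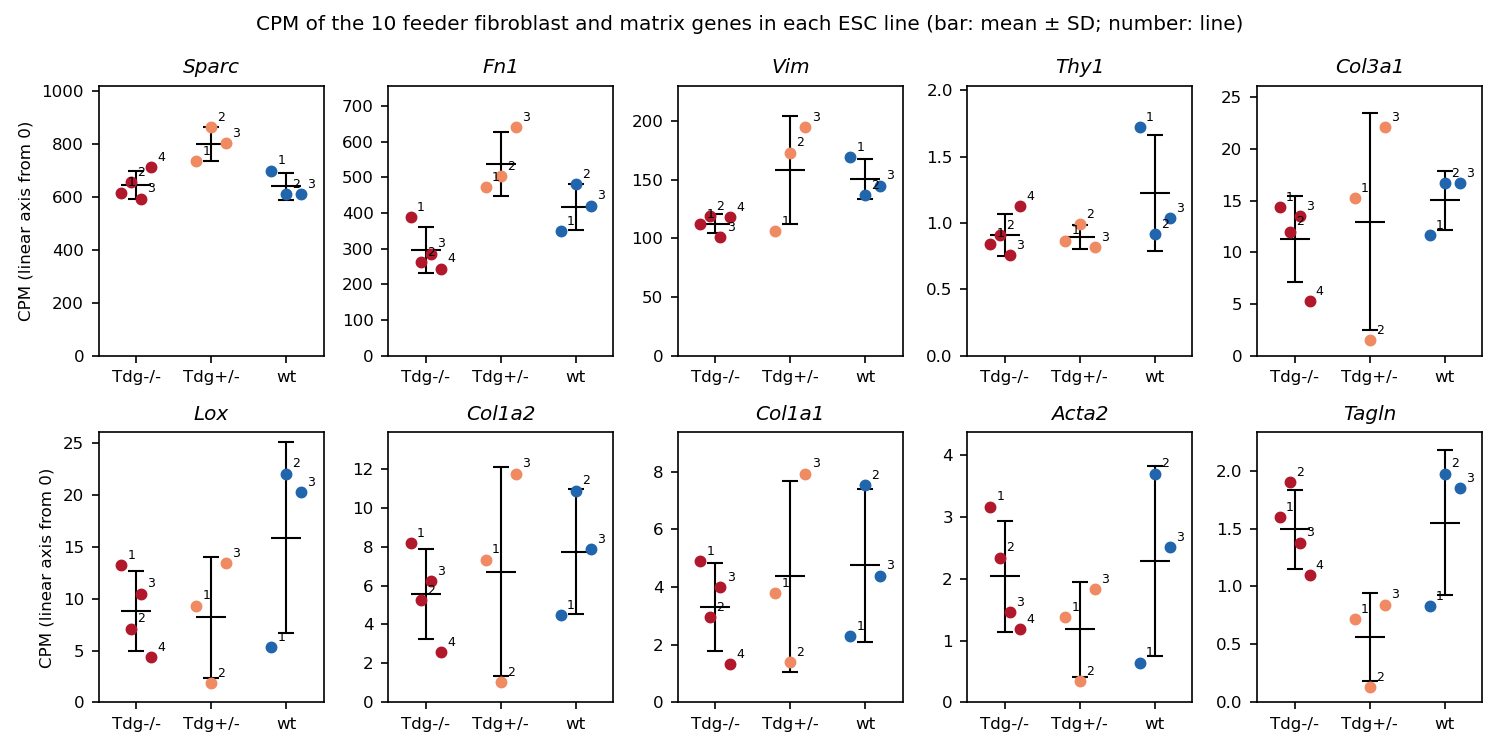
CPM of each of the 10 genes (linear axes from 0) in Tdg-/-, Tdg+/- and wt lines, with 1 numbered point per line and bars for the mean ± SD (n = 4, 3 and 3). Fn1 sits between 244 and 389 CPM in Tdg-/- lines and between 471 and 640.3 CPM in Tdg+/- lines, while Tdg+/- line 2 sits near 0 for the collagen, Lox, Acta2 and Tagln panels.

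Fn1 was the 1 member that edgeR called between genotypes at an adjusted p under 0.05 with all lines and no further covariate. DESeq2 called Tagln as well, and a fit with surrogate variables called more members in Tdg+/- against wt lines, as given with the counts over the panel. Fn1 encodes fibronectin, a matrix glycoprotein that integrins bind and that early embryonic cells secrete. It had 389, 262, 286 and 244 CPM in Tdg-/- lines 1 to 4. In Tdg+/- lines 1 to 3 it had 471, 503 and 640.3 CPM, and in wt lines 1 to 3 it had 349, 480.2 and 421 CPM. All 4 Tdg-/- lines were below all 3 Tdg+/- lines, and Tdg-/- line 1 lay within the range of the wt lines. The means were 295 ± 64.7 CPM in Tdg-/- lines, 538 ± 89.8 CPM in Tdg+/- lines and 417 ± 65.6 CPM in wt lines (SD, n = 4, 3 and 3).

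Fn1 fell in Tdg-/- against Tdg+/- lines by 0.86 on the log2 scale (standard error 0.18, adjusted p = 0.0282, edgeR quasi-likelihood test with Benjamini-Hochberg adjustment over all genes). Against wt lines, its level in Tdg-/- lines differed by −0.48 on the log2 scale (edgeR, standard error 0.17, adjusted p = 0.295) and that in Tdg+/- lines by 0.36 (edgeR, standard error 0.16, adjusted p = 0.292). Across the 3 genotypes its adjusted p was 0.0437 (edgeR), and 7 of the 10 fits that left out 1 line ended that call. The call between Tdg-/- and Tdg+/- lines did not hold when the change in mean transcript length was modelled (log2 fold change −0.56, adjusted p = 0.0788, edgeR). Leaving out Tdg+/- line 2 or 3, or Tdg-/- line 2, 3 or 4, also ended it, with adjusted p of 0.111, 0.105, 0.0878, 0.107 and 0.0743 (edgeR), whereas without Tdg+/- line 1 or Tdg-/- line 1 it was 0.0291 and 0.00135. The log2 fold changes of those 5 fits that lost the call were −0.90, −0.72, −0.81, −0.85 and −0.78, close to that with all lines.

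The transcripts behind the Fn1 reads differed in proportion among lines. Of its 17 annotated transcripts, the long coding ones took 77.0% to 83.2% of Fn1 reads in Tdg-/- lines, 81.7% to 85.2% in Tdg+/- lines and 76.9% to 81.7% in wt lines, and retained-intron transcripts took 11.7% to 17.5%, 11.4% to 12.8% and 12.6% to 16.8% in the same genotypes. In TPM, which divides by transcript length, Fn1 was at 62.3 ± 22.2 in Tdg-/- lines, 105 ± 14.4 in Tdg+/- lines and 108.2 ± 33.2 in wt lines (SD, n = 4, 3 and 3). The Tdg+/- and wt means, which were apart in CPM, thus lay close together in TPM. Library preparation started from total RNA with ribosomal RNA removed, so reads from unspliced or partly spliced RNA are among those counted.

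Sparc encodes a collagen-binding glycoprotein and was the most abundant member. It had 616, 654, 593 and 713 CPM in Tdg-/- lines 1 to 4, 735, 862 and 802 CPM in Tdg+/- lines 1 to 3, and 698, 609 and 611 CPM in wt lines 1 to 3. The Tdg+/- lines were above every Tdg-/- line and every wt line, while Tdg-/- and wt lines overlapped. The log2 fold change was 0.31 in Tdg+/- against wt lines (standard error 0.10, adjusted p = 0.195, edgeR), −0.31 in Tdg-/- against Tdg+/- lines (standard error 0.11, adjusted p = 0.0890, edgeR) and 0.03 in Tdg-/- against wt lines (standard error 0.12, adjusted p = 0.883, edgeR). None of the 3 passed the threshold, but without Tdg-/- line 1 Sparc was called in Tdg-/- against Tdg+/- lines (adjusted p = 0.0463, edgeR).

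Sparc lies on chromosome 11, whose genes moved together in the Tdg+/- lines. Over 1119 tested genes of that chromosome the median log2 fold change in Tdg+/- against wt lines was 0.42, against −0.04 for genes of the other chromosomes, and Sparc stood at the 33.4th percentile of chromosome 11. For Tdg-/- against Tdg+/- lines the chromosome's median was −0.38, against 0.01 elsewhere, and Sparc stood at percentile 55.7. Col1a1 lies on the same chromosome and stood at percentile 6.35 and 47.1 in the same comparisons. The part of this chromosome-wide shift in the Sparc values was not tested. The other members lie on chromosomes 1 (Fn1, Col3a1), 2 (Vim), 6 (Col1a2), 9 (Tagln, Thy1), 18 (Lox) and 19 (Acta2).

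Vim, the intermediate filament of mesenchymal cells that ESCs also express, had 112, 119, 101 and 118 CPM in Tdg-/- lines 1 to 4. It had 106, 173 and 195 CPM in Tdg+/- lines 1 to 3 and 169, 137 and 145 CPM in wt lines 1 to 3. Every Tdg-/- line was below every wt line, and Tdg+/- line 1 lay with the Tdg-/- lines, away from the other Tdg+/- lines. The log2 fold change was −0.39 in Tdg-/- against wt lines (standard error 0.12, adjusted p = 0.295, edgeR), −0.49 in Tdg-/- against Tdg+/- lines (standard error 0.18, adjusted p = 0.0968, edgeR) and 0.06 in Tdg+/- against wt lines (standard error 0.21, adjusted p = 0.907, edgeR). Without Tdg-/- line 1 the comparison of Tdg-/- with wt lines called both Fn1 and Vim (adjusted p = 0.0145 and 0.0468, edgeR), in a fit that then called 22.1% of genes, 3077 against 10 with all lines. Without Tdg+/- line 1, Vim was called in Tdg-/- against Tdg+/- lines (adjusted p = 0.0240, edgeR), in a fit that called 1535 genes.

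Thy1, a surface glycoprotein used to mark fibroblasts and other stromal cells, had 27 to 56 reads per line. Its level was 0.760 to 1.13 CPM in Tdg-/- lines, 0.819 to 0.993 CPM in Tdg+/- lines and 0.919 to 1.72 CPM in wt lines, with wt line 1 highest. Its adjusted p was 0.472, 0.946 and 0.518 in Tdg-/- against wt, Tdg-/- against Tdg+/- and Tdg+/- against wt lines (edgeR). In TPM the genotypes lay farther apart, at 1.32 ± 0.597 in Tdg-/-, 0.514 ± 0.458 in Tdg+/- and 2.03 ± 0.948 in wt lines (SD, n = 4, 3 and 3). With the change in mean transcript length modelled, its log2 fold change in Tdg+/- against wt lines was −2.15, against −0.46 without (adjusted p = 0.197, edgeR). At this depth the 95% Poisson intervals of the counts in wt line 1 (42.3 to 72.7 reads) and in the next highest line, Tdg-/- line 4 (26.9 to 52.2 reads), overlapped. Such intervals cover counting error only.

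The highest and the lowest levels of the collagen genes lay mostly within the Tdg+/- lines. Col1a1 and Col1a2 encode the chains of type I collagen, the main fibrillar collagen of skin, bone and tendon, and Col3a1 encodes type III collagen, which fibroblasts deposit with it. Col3a1 had 14.4, 12.0, 13.5 and 5.26 CPM in Tdg-/- lines 1 to 4, 15.2, 1.52 and 22.1 CPM in Tdg+/- lines 1 to 3, and 11.7, 16.7 and 16.7 CPM in wt lines 1 to 3. Col1a2 had 8.18, 5.27, 6.22 and 2.58 CPM in Tdg-/- lines, 7.33, 1.05 and 11.7 CPM in Tdg+/- lines, and 4.49, 10.9 and 7.87 CPM in wt lines. Both were lowest in Tdg+/- line 2 and highest in Tdg+/- line 3, so the extremes of all 10 lines fell within a single genotype. Col1a1 had 4.89, 2.95, 4.0 and 1.34 CPM in Tdg-/- lines, 3.80, 1.39 and 7.93 CPM in Tdg+/- lines, and 2.31, 7.54 and 4.39 CPM in wt lines. Its lowest line was Tdg-/- line 4, just under Tdg+/- line 2, with 45 and 53 reads.

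Lox, whose product cross-links collagen and elastin, followed the same lines. It had 13.2, 7.12, 10.5 and 4.37 CPM in Tdg-/- lines 1 to 4, 9.34, 1.88 and 13.4 CPM in Tdg+/- lines 1 to 3, and 5.35, 22.1 and 20.3 CPM in wt lines 1 to 3. Of the contractile members, Acta2 had 3.17, 2.34, 1.46 and 1.19 CPM in Tdg-/- lines, 1.38, 0.340 and 1.83 CPM in Tdg+/- lines, and 0.646, 3.70 and 2.51 CPM in wt lines. Its product, smooth muscle actin, shares long coding stretches with the other actins, so the assignment of its reads is uncertain. Tagln, an actin-binding protein of smooth muscle and activated fibroblasts, had 1.60, 1.90, 1.38 and 1.10 CPM in Tdg-/- lines, 0.718, 0.131 and 0.843 CPM in Tdg+/- lines, and 0.830, 1.97 and 1.85 CPM in wt lines. Tagln was the member of the 6 in which all Tdg-/- lines lay above all Tdg+/- lines, and wt line 1 lay with the Tdg+/- lines.

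Tdg+/- line 2 was the lowest of all 10 lines for 5 of the 6 genes, all but Col1a1. Against it, the mean of the other Tdg+/- lines was 12.3 times higher for Col3a1, 9.12 times for Col1a2, 6.05 times for Lox, 5.98 times for Tagln, 4.72 times for Acta2 and 4.24 times for Col1a1. The same ratio was 1.10 for Fn1, 0.891 for Sparc, 0.870 for Vim and 0.849 for Thy1. That library held 38086902 reads, above the lowest of the 10. Its 5 Tagln reads have a 95% Poisson interval of 1.62 to 11.7 reads, and the next lowest line, Tdg+/- line 1, had 24 reads with an interval of 15.4 to 35.7. Tdg+/- line 2 and wt line 1 were among the 3 lowest lines for all 6 genes, and Tdg-/- line 4 for 5 of 6. Each genotype thus held 1 low line, and that of wt was the line that stood apart from the other wt lines over all genes. In the other genotypes it was not. In Tdg-/- the line apart was line 1. In Tdg+/- it was also line 1, with a mean chi-square per gene of 42.3 and 57.4, against 26.6 between lines 2 and 3. The sum over the 6 genes was 15.8 CPM in Tdg-/- line 4 against 31.6 to 45.4 CPM in the other Tdg-/- lines, 6.30 CPM in Tdg+/- line 2 against 37.8 and 57.8 CPM in the other Tdg+/- lines, and 25.3 CPM in wt line 1 against 53.6 and 62.9 CPM in the other wt lines.

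**Figure D2:**
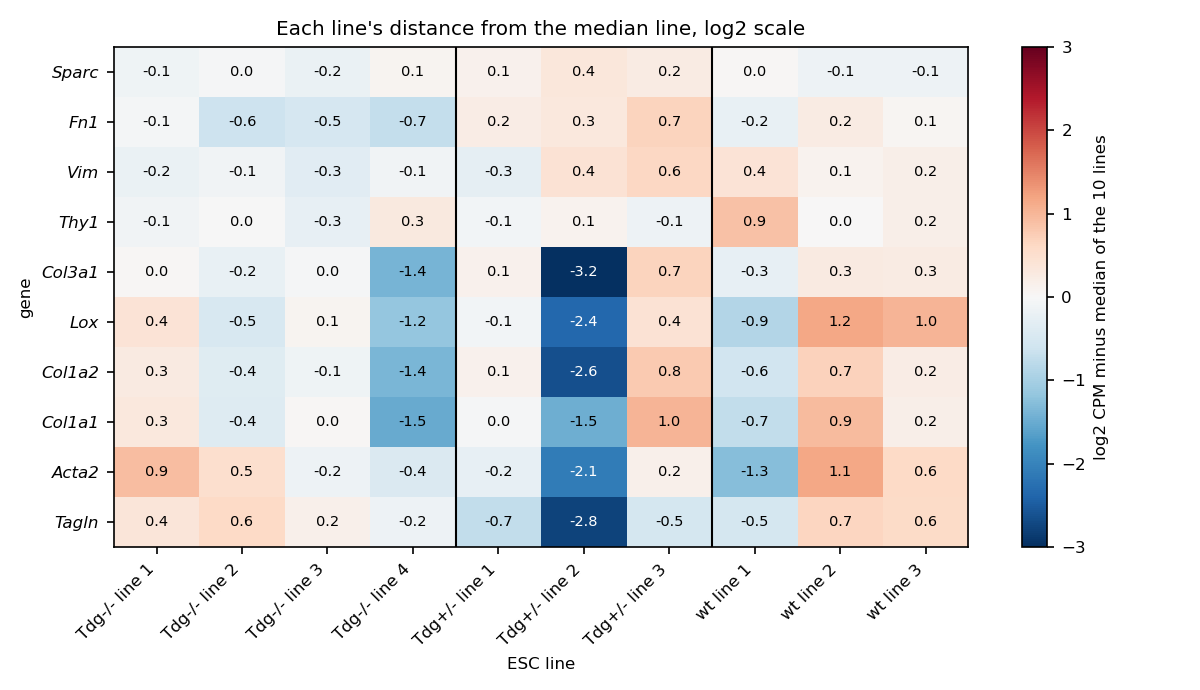
Log2 CPM of each gene in each line minus the median of the 10 lines for that gene, with Tdg-/-, Tdg+/- and wt lines from left to right and blue for values below the median. Tdg+/- line 2 is dark in the 6 lower rows, where its differences run from −3.15 to −1.46, and Tdg-/- line 4 and wt line 1 are paler in the same rows.

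None of the 6 genes passed the adjusted threshold of edgeR between genotypes. Their log2 fold changes ran from −0.84 for Lox to −0.03 for Tagln in Tdg-/- against wt lines, from −0.41 for Col1a1 to 1.40 for Tagln in Tdg-/- against Tdg+/- lines, and from −1.47 for Tagln to −0.13 for Col1a1 in Tdg+/- against wt lines. The standard errors were wide, 0.30 to 0.51 in Tdg-/- against wt lines, 0.49 to 0.65 in Tdg-/- against Tdg+/- lines and 0.60 to 0.69 in Tdg+/- against wt lines. Tagln came nearest, with adjusted p of 0.0814 in Tdg-/- against Tdg+/- lines and 0.267 in Tdg+/- against wt lines (edgeR). DESeq2 called Tagln higher in Tdg-/- than in Tdg+/- lines (adjusted p = 0.0243). Without Tdg+/- line 2, Col1a1, Col1a2 and Col3a1 had log2 fold changes of 0.29, 0.29 and 0.30 in Tdg+/- against wt lines, against −0.13, −0.22 and −0.23 with it.

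Over the whole panel, 0 of 10 members were called in Tdg-/- against wt lines by edgeR, where 0.0718% of 13926 genes were called, and 0 of 10 in Tdg+/- against wt lines, where 0.0288% of 13880 genes were called. In Tdg-/- against Tdg+/- lines 1 of 10 was called, and the share over 13962 genes was 9.03%. Across the 3 genotypes 1 of 10 was called, against 3.67% of 14105 genes. The members' share in the comparison with Tdg+/- lines was close to that of all genes. DESeq2 called 0 members in Tdg-/- against wt lines (0.668% of genes), 2 in Tdg-/- against Tdg+/- lines (24.0% of genes), 0 in Tdg+/- against wt lines (5.36% of genes) and 2 across the 3 genotypes (21.5% of genes). Its 2 in each case were Fn1 and Tagln.

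At an unadjusted p under 0.05, edgeR had 2 members lower in Tdg-/- against wt lines, Fn1 and Vim, where 15.9% of genes passed in either direction. Between Tdg-/- and Tdg+/- lines 1 member was higher, Tagln, and 3 lower, Fn1, Sparc and Vim, where 35.2% of genes passed. In Tdg+/- against wt lines 2 were higher, Fn1 and Sparc, and 1 lower, Tagln, where 17.0% passed, and across the 3 genotypes 4 passed, where 32.0% of genes did. Groups did not overlap in CPM for 1 member in Tdg-/- against wt lines, Vim (9.80% of genes), for 3 members in Tdg-/- against Tdg+/- lines, Tagln, Fn1 and Sparc (24.5% of genes), and for 1 in Tdg+/- against wt lines, Sparc (21.7% of genes). The comparisons are not independent, since the lines of each genotype stand in 2 of the 3 of them.

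The median log2 fold change over the 10 members was −0.40 in Tdg-/- against wt lines, with 1 above and 9 below 0, where the median of all genes was −0.01. It was −0.23 in Tdg-/- against Tdg+/- lines, with 4 above and 6 below 0, and −0.22 in Tdg+/- against wt lines, with 3 above and 7 below 0, where the medians of all genes were −0.02 and −0.02. These medians depended on the fit. With the replicate number as a block, since same-numbered Tdg-/- and wt lines deviated together, the median was −0.15 in Tdg-/- against wt lines, with 2 members above and 8 below 0. No other genotype had a line 4, so under the block Tdg-/- line 4 added nothing to that comparison. Leaving out a line gave −0.57 to −0.22 there, the smallest shifts being −0.22 without wt line 2 and −0.24 without Tdg-/- line 4. In Tdg-/- against Tdg+/- lines the median turned to 0.39 without Tdg+/- line 3 and lay between −0.38 and −0.06 without any other line, and in Tdg+/- against wt lines it turned to 0.12 without Tdg+/- line 2 and lay between −0.88 and −0.07 without any other. Without Tdg-/- line 1, the line that stood apart, edgeR called 2 members in each of Tdg-/- against wt lines (Fn1, Vim), Tdg-/- against Tdg+/- lines (Fn1, Sparc) and the 3 genotypes (Fn1, Sparc), in fits that called 22.1%, 40.6% and 35.4% of genes. With 3 surrogate variables estimated from the same libraries edgeR called 4 members in Tdg+/- against wt lines, where 27.1% of genes were called: Fn1 and Sparc were higher in Tdg+/- lines (log2 fold change 0.37 and 0.27, adjusted p = 0.00309 and 0.00700) and Lox and Tagln lower (−0.66 and −1.29, adjusted p = 0.00491 and 0.0117). That fit of 6 lines left 1 residual degree of freedom, so its p-values rest on little measure of the spread between lines. Leaving out a line changed the number of members called in Tdg-/- against Tdg+/- lines to between 0 and 2.

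**Figure D3:**
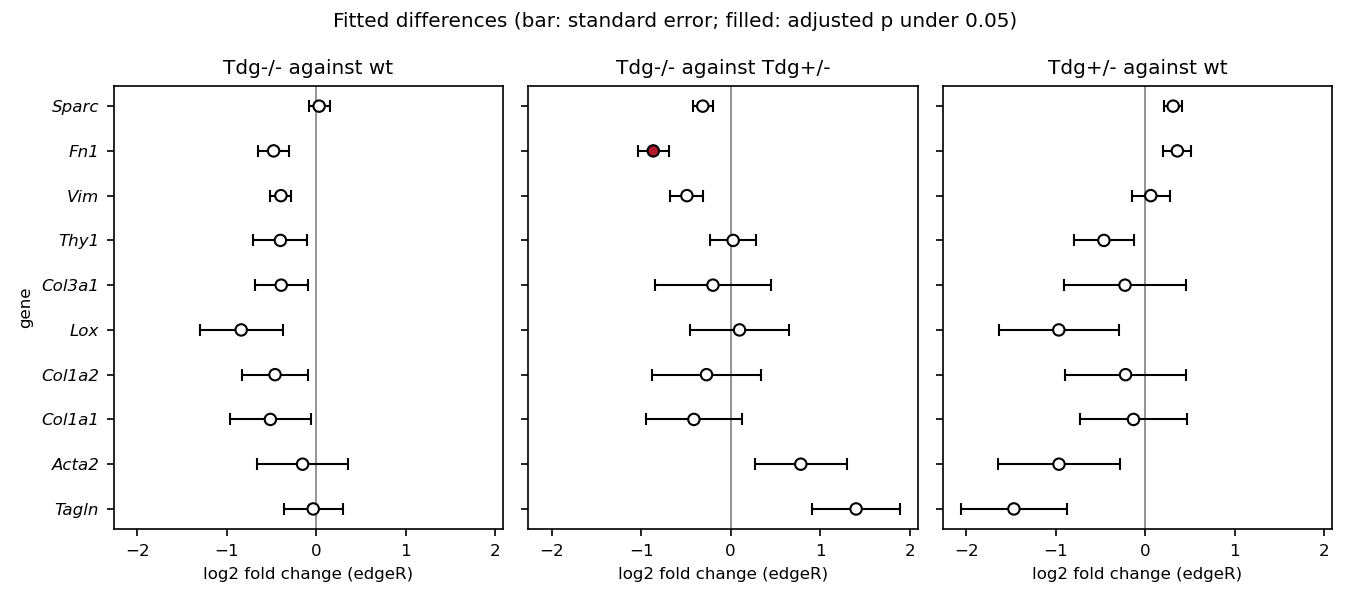
Fitted log2 fold changes (edgeR) of the 10 genes in Tdg-/- against wt, Tdg-/- against Tdg+/- and Tdg+/- against wt lines, with bars for the standard error and a filled point for an adjusted p under 0.05. Fn1 in the middle panel, at −0.86, is the only filled point, and in that panel the collagen, Lox, Acta2 and Tagln bars, at 0.49 to 0.65, are wider than those of the other 4 genes.

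The 6 low genes varied together across the 10 lines. Of the 45 pairs of members, 13 passed an adjusted p under 0.05 for Pearson's r on log2 CPM and 11 for Spearman's rho (two-sided permutation test, 100000 permutations, Benjamini-Hochberg over the 45 pairs). 12 of the 13 were pairs within the 6 low genes, whose 15 r values ran from 0.542 to 0.974 with a median of 0.834. Col1a2 and Col3a1 had the highest, with r = 0.974 and rho = 0.964 (adjusted permutation p = 0.00045 and 0.0016), and r = 0.920 without the 2 lines farthest from the median of Col1a2. Col1a1 and Col1a2 had r = 0.927 and rho = 0.976 (adjusted permutation p = 0.00045 and 0.0013), and r = 0.982 without the 2 farthest lines. Within genotypes, with each genotype's mean removed, the r of the 15 pairs ran from 0.770 to 0.974. Acta2 and Tagln, the contractile pair, had r = 0.880 and rho = 0.867 (adjusted permutation p = 0.0048 and 0.013), and 0.798 without the 2 farthest lines.

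Some of these relations rested on the lowest lines. Without the 2 farthest lines the r of Tagln with Col1a2 was 0.253, against 0.738 with all lines, and that of Tagln with Col3a1 was 0.145, against 0.772. The r of Col3a1 with Acta2 was 0.382 without them, against 0.764. Tagln and Sparc ran in opposite directions, with r = −0.865 and rho = −0.782 (adjusted permutation p = 0.0041 and 0.043), r = −0.793 without the 2 farthest lines and r = −0.670 within genotypes. The 3 abundant genes were less alike, with r of 0.603 for Fn1 and Vim, 0.598 for Vim and Sparc and 0.446 for Fn1 and Sparc, and adjusted permutation p of 0.16, 0.16 and 0.32. Within genotypes the same pairs had r of 0.137, 0.690 and −0.468, and without the 2 farthest lines 0.387, 0.068 and 0.449.

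The proportions among the 3 collagen genes varied less over lines than those of the contractile pair. The ratio of Col1a2 to Col1a1 CPM was 1.44 to 1.95 in 9 lines and 0.755 in Tdg+/- line 2, and that of Col3a1 to Col1a2 was 1.53 to 2.60 in 9 lines and 1.45 in Tdg+/- line 2. In Tdg+/- line 2 they rest on 53, 40 and 58 reads of Col1a1, Col1a2 and Col3a1. The ratio of Lox to Col1a2 ran from 1.14 in Tdg+/- line 3 to 2.58 in wt line 3. That of Acta2 to Tagln ran from 0.778 in wt line 1, where it rests on 21 and 27 reads, to 2.60 in Tdg+/- line 2, where it rests on 13 and 5 reads. How far counting error widened the range of the contractile pair was not tested. These are ratios of counts that are not divided by length, so they compare lines and not genes.

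The RefSeq promoter table for GRCm38.p6, which spans 250 bases before to 50 after each gene's start, matched 5 of the 10 members, Col1a2, Col3a1, Acta2, Vim and Sparc. Col1a2 and Col3a1 are shown because they were the pair with the highest r across lines, and Sparc because it was the abundant member that ran against Tagln. CpG dinucleotides are in capitals, since thymine DNA glycosylase acts on modified cytosines of CpG sites.
Col1a2, chr6:4505368-4505667, plus strand: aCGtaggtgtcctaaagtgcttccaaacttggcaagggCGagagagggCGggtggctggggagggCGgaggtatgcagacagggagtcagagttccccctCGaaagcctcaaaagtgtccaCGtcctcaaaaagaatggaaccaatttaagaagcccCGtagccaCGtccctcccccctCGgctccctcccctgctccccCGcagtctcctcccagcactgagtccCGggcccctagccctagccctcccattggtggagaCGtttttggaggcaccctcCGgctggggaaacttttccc
Col3a1, chr1:45311288-45311587, plus strand: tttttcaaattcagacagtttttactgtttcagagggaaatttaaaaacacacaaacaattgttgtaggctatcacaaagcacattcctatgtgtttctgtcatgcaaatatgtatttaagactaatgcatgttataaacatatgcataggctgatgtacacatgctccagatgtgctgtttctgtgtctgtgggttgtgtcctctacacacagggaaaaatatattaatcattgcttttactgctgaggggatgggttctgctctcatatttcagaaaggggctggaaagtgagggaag
Sparc, chr11:55420031-55420330, minus strand: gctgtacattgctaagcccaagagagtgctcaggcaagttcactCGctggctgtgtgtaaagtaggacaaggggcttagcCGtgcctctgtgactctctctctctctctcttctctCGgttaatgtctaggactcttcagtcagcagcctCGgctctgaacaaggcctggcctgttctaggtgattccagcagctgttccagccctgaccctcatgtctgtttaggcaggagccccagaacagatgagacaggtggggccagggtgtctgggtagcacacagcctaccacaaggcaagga

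The pair with the highest r thus had unlike promoters in base composition. The Col1a2 window held 13 CpG sites and 61.0% G or C, and the Col3a1 window held 0 CpG sites and 37.7% G or C. The Sparc window held 4 CpG sites, that of Acta2 6 and that of Vim 11, where the median of 32851 promoters was 7 with quartiles of 3 and 20. On both strands, TATAAA, the core of the TATA box, was found in the Col3a1 window, 117 bases before the start, and in that of Vim, 32 bases before it, and 13.6% of all promoters hold it. GGGCGG, the core of the GC box, occurred 2 times in the Col1a2 window and in 35.7% of all promoters, and GGAATG, the core that TEAD factors bind, once each in the Col3a1 and Acta2 windows and in 14.7% of all promoters. The CArG box, which SRF binds, was in none of the 5 windows in its strict form and in 1.63% of all promoters. A match of letters is a description and not a site.

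Other matrix genes followed the 6. Of a list of 25 other fibrillar collagens and matrix proteins, 24 were tested in each comparison and 0 were called, while 20 averaged at least 1 CPM. The median r of these 20 with the mean profile of the 6 genes was 0.853, and 11 of 20 reached 0.8, against 0.632% of 12188 genes. 12 of the 20 were lowest in Tdg+/- line 2, against 10.7% of 12194 genes, and 9 of 20 had Tdg-/- line 4, Tdg+/- line 2 and wt line 1 as their 3 lowest lines, against 0.599% of genes. Over the tested genes of this list the median log2 fold change was −0.27 in Tdg-/- against wt, −0.02 in Tdg-/- against Tdg+/- and −0.39 in Tdg+/- against wt lines. The profile of the 6 was chosen after the values were seen, and the genes share libraries, so the shares are a description.

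Postn, which encodes the collagen-associated protein periostin, was most like the 6 genes over 12184 genes (r = 0.988, rho = 0.976, 10 lines), with 0.209 CPM in Tdg+/- line 2 and 4.22 CPM in wt line 2. Col12a1, a collagen of fibril surfaces, came next (r = 0.987, 0.444 to 6.62 CPM), and then Ccdc80, a secreted matrix protein (r = 0.980, 0.261 to 4.76 CPM). Col6a1, a chain of microfibrillar collagen, the matricellular Thbs1, the protease Adamts5, the protease inhibitor Timp2, Prss23, Col5a2, a chain of the collagen that nucleates fibrils, and the caveolar protein Cav1 made up the rest of the 10 most alike, with r from 0.942 for Cav1 to 0.974 for Col6a1. All 10 were lowest in Tdg+/- line 2. With the mean profile of all 10 members in place of the 6, the closest were Cables1 (r = 0.921), the microfibril gene Fbn1 (0.917), Plekhm2 (0.917), Col12a1 (0.905), the growth factor gene Vegfb (0.904), Col6a1 (0.898), Tshz1 (0.895), Crb2 (0.885), Col5a2 (0.885) and the fibulin gene Fbln2 (0.874).

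Not every matrix gene did so. Timp1, an inhibitor of matrix proteases, had r = −0.649 with the 6 genes and stayed between 26.6 and 39.9 CPM, and the fibulin Fbln1 had an r near 0 and ran from 21.1 CPM in Tdg-/- line 4 to 63.4 CPM in wt line 1. Ccn2, a matricellular gene, averaged 22.3 ± 7.87 CPM in Tdg-/- lines, 13.5 ± 1.66 CPM in Tdg+/- lines and 26.4 ± 11.7 CPM in wt lines (SD, n = 4, 3 and 3), and its relative Ccn1 4.70 ± 0.944, 3.13 ± 0.758 and 5.75 ± 0.809 CPM in the same genotypes. Neither passed the adjusted threshold.

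Of 18 mesenchymal and fibroblast identity genes, 12 had at least 20 reads in some line. Tcf21, a transcription factor of fibroblast progenitors, was at 0 in every library, and Twist2, Fap, Snai2, Meox2 and Fosl1 were under 20 reads in all. The summed level of the list was 23.1 to 34.8 CPM in Tdg-/- lines, 15.4 to 26.1 CPM in Tdg+/- lines and 23.9 to 37.1 CPM in wt lines, lowest in Tdg+/- line 2. Of the 5 that averaged at least 1 CPM, 4 were lowest in that line, and 3 had r of at least 0.8 with the 6 genes. Ly6a, the stem cell antigen Sca-1 of fibroblasts and other cells, had 0.209 CPM in Tdg+/- line 2 and up to 3.38 CPM in wt line 2 (r = 0.920). S100a6, a calcium-binding protein, averaged 11.3 ± 4.17 CPM in Tdg-/- lines, 5.54 ± 1.56 CPM in Tdg+/- lines and 9.90 ± 1.83 CPM in wt lines (SD, n = 4, 3 and 3), Twist1 0.707 ± 0.154, 0.469 ± 0.124 and 1.01 ± 0.354 CPM, and Zeb1 9.0 ± 2.60, 9.47 ± 0.881 and 11.2 ± 2.06 CPM in the same genotypes. None of the list was called in any comparison. Its median log2 fold change was −0.08 over 12 genes in Tdg-/- against wt, 0.58 over 11 in Tdg-/- against Tdg+/- and −0.86 over 11 in Tdg+/- against wt lines. In the last, 3 of the 11 were lower at an unadjusted p under 0.05 (edgeR), where 17.0% of 13880 genes passed in either direction. Of this list, 6 of 18 genes were thus under 20 reads in all lines and 12 were not, and the 3 that followed the panel genes most closely, Ly6a, Cav1 and Cdh11, reached at most 3.38, 2.78 and 2.29 CPM in any line. Thy1, the panel's own fibroblast surface marker, did not follow the 6 genes (r = −0.374), and Tdg+/- line 2 was not among its lowest lines. Its r with each of the 6 was −0.814 to −0.498 within genotypes on log2 CPM. Across lines in TPM it was −0.080 to 0.493. Whether the reads of the 6 genes came from feeder fibroblasts or from ESCs was not tested.

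**Figure D4:**
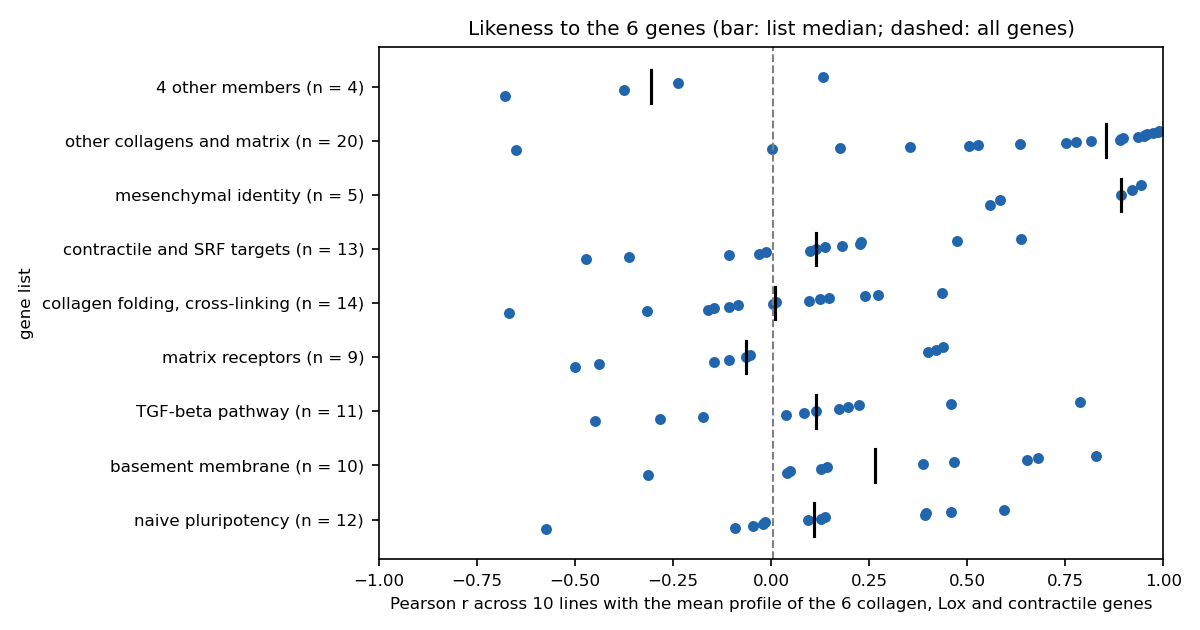
Pearson r across the 10 lines between single genes and the mean profile of Col1a1, Col1a2, Col3a1, Lox, Acta2 and Tagln, with 1 point per gene averaging at least 1 CPM, a bar for each list's median and a dashed line for the median of all genes. The other matrix genes and the mesenchymal genes lie to the right, with medians of 0.853 and 0.892, and the median of the naive pluripotency genes is 0.111.

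The genes that fold and cross-link collagen did not follow the 6 where they averaged at least 1 CPM. Of 18 such genes 14 did so, their median r with the 6 genes was 0.00881, and 0 of the list were called in any comparison. Of the 14, 2 were lowest in Tdg+/- line 2, against 10.7% of all genes. No r was taken for the genes below 1 CPM, of which Bmp1, Loxl1 and Loxl3 were lowest in Tdg+/- line 2 and Adamts2 in Tdg-/- line 4. Serpinh1, the collagen chaperone, averaged 80.2 ± 8.44 CPM in Tdg-/- lines, 66.5 ± 7.62 CPM in Tdg+/- lines and 105 ± 35.3 CPM in wt lines (SD, n = 4, 3 and 3). P4hb, a subunit of prolyl hydroxylase and a general folding enzyme, averaged 1222 CPM over all lines, and Ppib, a folding isomerase, 335 CPM. The lysyl hydroxylase genes Plod1 and Plod2 averaged 26.9 ± 1.94 and 34.7 ± 2.72 CPM in Tdg-/- lines, 37.5 ± 7.45 and 26.1 ± 4.25 CPM in Tdg+/- lines and 28.2 ± 3.45 and 41.9 ± 10.04 CPM in wt lines.

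Among 21 contractile genes and SRF targets, 14 had at least 20 reads in some line, and Acta1, Actg2, Cnn1, Mylk, Myh11, Lmod1 and Tgfb1i1 did not. Actg1, the cytoplasmic gamma actin, was the 1 of 13 tested that edgeR called in Tdg-/- against Tdg+/- lines (log2 fold change −0.69, adjusted p = 0.0394), where 9.03% of all genes were called. Without Tdg+/- line 2 or 3, or Tdg-/- line 2, 3 or 4, its adjusted p was 0.0961 to 0.141 (edgeR). Across the 3 genotypes its adjusted p was 0.0497, and 0.0536 with RLE size factors (edgeR). It averaged 1298 ± 169.8 CPM in Tdg-/- lines, 2087 ± 430.4 CPM in Tdg+/- lines and 1464 ± 106 CPM in wt lines. It lies on chromosome 11, as Sparc does. Actb averaged 1852 ± 303, 2248 ± 420.5 and 2206 ± 151 CPM in Tdg-/-, Tdg+/- and wt lines, Flna 331 ± 81.0, 362 ± 97.8 and 364 ± 18.5 CPM, and Mrtfb, a coactivator of SRF, 4.67 ± 0.468, 6.37 ± 0.536 and 7.24 ± 1.5 CPM.

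Of 12 fibronectin and collagen receptors 10 were tested in each comparison. Ddr1, a collagen receptor kinase, fell in Tdg-/- against Tdg+/- lines by 0.65 on the log2 scale (adjusted p = 0.0483, edgeR), as 1 of 10 where 9.03% of all genes were called, and 0 were called in the other comparisons. Without any 1 line other than Tdg-/- line 1 its adjusted p was 0.0803 to 0.150 (edgeR). Itgb1, the shared subunit of the fibronectin and collagen integrins, averaged 146 ± 29.6 CPM in Tdg-/- lines, 125 ± 16.5 CPM in Tdg+/- lines and 180.2 ± 16.1 CPM in wt lines, and Itgav, the alpha subunit of vitronectin and fibronectin receptors, 35.3 ± 8.15, 53.1 ± 2.60 and 49.3 ± 2.26 CPM. Itgb5 averaged 59.7 CPM and the proteoglycan Sdc4 284 CPM over all lines. Of 10 basement membrane genes, the laminin chain genes Lama5 and Lamb1 fell in Tdg-/- against Tdg+/- lines by 0.49 and 0.66 on the log2 scale (adjusted p = 0.0492 and 0.0355, edgeR), as 2 of 10 tested where 9.03% of all genes were called, and 0 were called in the other comparisons. The Lama5 call was lost without any 1 line other than Tdg-/- line 1 (adjusted p = 0.0570 to 0.167, edgeR), and the Lamb1 call without Tdg+/- line 2 or 3 or Tdg-/- line 2, 3 or 4 (0.0818 to 0.134). Lamc1 averaged 176 ± 48.8 CPM in Tdg-/- lines, 245 ± 36.9 CPM in Tdg+/- lines and 208 ± 11.3 CPM in wt lines. Nid1 and Nid2, which link laminin to collagen, were highest in Tdg+/- lines on average, at 148 ± 8.90 and 193 ± 34.8 CPM, against 95.2 ± 43.2 and 123 ± 46.6 CPM in Tdg-/- lines.

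Of 14 genes of TGF-beta ligands, receptors and feedback, a pathway that induces collagen in fibroblasts, 12 were tested and 0 were called in any comparison. Smad2, Smad4 and Skil averaged 65.2, 49.7 and 61.8 CPM over all lines. Smad3 averaged 9.06 ± 1.59 CPM in Tdg-/- lines, 13.0 ± 1.47 CPM in Tdg+/- lines and 12.0 ± 1.42 CPM in wt lines, and the coreceptor gene Tgfbr3 2.18 ± 0.438, 3.67 ± 0.691 and 2.5 ± 0.596 CPM.

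Primitive endoderm markers were low, while the lists of endothelial and of primed markers each held more abundant genes, Pecam1 and Dnmt3b. The 10 primitive endoderm markers, cells that make Sparc and laminin in the embryo, summed to 3.51 to 4.02 CPM in Tdg-/- lines, 3.06 to 3.74 CPM in Tdg+/- lines and 3.87 to 4.2 CPM in wt lines, and Gata6, Sox17, Foxa2, Dab2, Amn and Cubn were under 20 reads in every line. Gata4 averaged 1.39 CPM, Pdgfra 0.822, Sox7 0.428 and Hnf4a 0.338 CPM over all lines. Of 8 endothelial and blood markers Hbb-bt was at 0, Ptprc reached at most 0.0940 CPM, and the list's sum of 60.8 to 106 CPM came mostly from Pecam1, which ESCs express, at 52.2 to 83.1 CPM. Tek was called lower in Tdg-/- against Tdg+/- lines (log2 fold change −0.94, adjusted p = 0.0257, edgeR), as 1 of 2 tested where 9.03% of all genes were called. It had 8.58 to 23.3 CPM over all lines, and the call was lost without Tdg+/- line 2 or 3 or Tdg-/- line 2, 3 or 4 (adjusted p = 0.0678 to 0.115, edgeR). Of 10 primed and early mesoderm markers, Otx2 was called higher in the same comparison, as 1 of 6 tested (log2 fold change 1.09, adjusted p = 0.0410, edgeR), a call lost without the same 5 lines each (adjusted p = 0.0736 to 0.137, edgeR), and its wt lines ran from 7.29 to 44.0 CPM. The list summed to 117 to 134 CPM in Tdg-/- lines, 93.3 to 142 CPM in Tdg+/- lines and 135 to 153 CPM in wt lines. Dnmt3b averaged 82.4 CPM, Cdh2 12.8 and Eomes 8.87 CPM over all lines. For the 5 primed markers that averaged at least 1 CPM, r with the 6 low genes ran from −0.354 to 0.791, the latter for Eomes, with a median of 0.39. Gata4, the 1 primitive endoderm marker at that level, had r = 0.720. Of the 12 naive pluripotency genes 0 were called, with Pou5f1 at 1303, Nanog at 654, Tfcp2l1 at 696 and Zfp42 at 182 CPM on average. How far any of these marker levels bears on the panel's values was not tested.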

How the data were processed

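Salmon 0.8.1 was run by the authors against GRCm39, per the labels, and gave for each transcript an estimated count (expected reads) and TPM. Total RNA had been depleted of ribosomal RNA and made into stranded libraries. Here the deposited estimated counts and TPM were summed per gene with the GENCODE M21 annotation, which paired 115153 of 116357 transcripts, and counts were rounded. CPM were scaled by TMM factors. Only genes reaching 20 reads in any line of a fit were kept and tested with the quasi-likelihood F-test of edgeR 4.0.16 (R 4.3.3), with Benjamini-Hochberg adjustment over all genes and a threshold of 0.05. Alternatives were RLE size factors, DESeq2 1.42.0, other filters (at least 1 read, or 1 CPM in 3 lines), a transcript length offset, the replicate number as a block, all 10 lines in 1 fit, 3 surrogate variables (sva 3.50.0) and each line left out. The scripts were tested on simulated data.

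Replicate numbers in the labels were checked for pairing: lines of the same number in Tdg-/- and wt deviated together (r = 0.167, 0.136 and 0.143), so a blocked fit was made, which called 0 members, as the unblocked one did, and 5 genes against 10. The Tdg-/- line whose number no other genotype had added nothing to the blocked comparison. In the other comparisons not every number deviated together. The members and gene lists were chosen with earlier results of these data known. The text names all 10 members, the 10 genes most like their mean profile, and from each list the genes called in any comparison, otherwise the 3 most abundant and the 2 of smallest p across genotypes. Genes named beyond these were chosen after their values were seen. Correlations used log2 CPM with a prior count of 2 and 100000 permutations.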

Additional observations from a re-analysis of the deposited data

How the results depend on the processing

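Between Tdg-/- and Tdg+/- lines 1 member was called in the reported fit and under RLE size factors, both other filters and all 10 lines in 1 fit. DESeq2 called 2, the transcript length offset 0 and the replicate block 0, and leaving out each line gave 0 to 2. Across the 3 genotypes 1 was called in the same way, with 2 under DESeq2, 0 under the offset, 0 under the replicate block and 0 to 2 when a line was left out. In Tdg-/- against wt lines the count was 0 under every setting that kept all lines and 0 to 2 when a line was left out, with the 2 only without Tdg-/- line 1. In Tdg+/- against wt lines it was 0 throughout, except for 4 with 3 surrogate variables, a fit with 1 residual degree of freedom. The replicate block moved the calls over all genes to 6 against 1261 between Tdg-/- and Tdg+/- lines, 33 against 4 between Tdg+/- and wt lines, and 80 against 517 across the genotypes. Tdg+/- lines share only a number with lines of the other genotypes: same-numbered lines there had correlations of −0.089 to 0.104. Over all 3 genotypes, 5 of the 9 lines with a shared number correlated best with a line of that number. These 5 were Tdg-/- and wt lines. The calls of Actg1, Ddr1, Lama5, Lamb1, Otx2 and Tek between Tdg-/- and Tdg+/- lines, like that of Fn1, were all lost under the block (adjusted p = 0.187, 0.171, 0.216, 0.174, 0.151, 0.151 and 0.159, edgeR) with their directions kept. The block also took degrees of freedom from these fits of few lines. No other genotype had a line 4, so under the block Tdg-/- line 4 added nothing to the fold changes of Tdg-/- lines. The median over the members under the block was 0.27 against −0.23 in Tdg-/- against Tdg+/- lines and −0.45 against −0.22 in Tdg+/- against wt lines. The number of correlated pairs was 13 and lay between 9 and 19 when a line was left out, with 14 on log2(TPM + 0.1). The median fold between the highest and lowest line was 8.41 in TMM-scaled CPM, 8.31 with RLE factors and 10.6 in TPM. The cause of these changes was not tested.

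Directions turned only for fold changes that did not pass the threshold in the reported fits. Among them was Fn1 in Tdg+/- against wt lines, which was called with 3 surrogate variables (log2 fold change 0.37, adjusted p = 0.00309, edgeR). In Tdg+/- against wt lines Fn1 turned to −0.10 under the length offset, Col1a1 was at 0.001 and Vim at −0.081 with 3 surrogate variables, and with a line left out Col1a1 ran from −0.89 to 0.38, Col1a2 from −0.91 to 0.29, Col3a1 from −0.86 to 0.30 and Vim from −0.12 to 0.29. Between Tdg-/- and wt lines the replicate block gave 0.15 for Tagln, 0.17 for Acta2 and −0.021 for Sparc, and with a line left out Tagln ran from −0.33 to 0.18, Acta2 from −0.59 to 0.39 and Sparc from −0.021 to 0.098. Between Tdg-/- and Tdg+/- lines it gave 0.12 for Col1a1, 0.41 for Col1a2, 0.56 for Col3a1 and −0.091 for Thy1, and with a line left out Col1a1 ran from −0.82 to 0.35, Col1a2 from −0.77 to 0.42, Col3a1 from −0.71 to 0.44, Thy1 from −0.09 to 0.13 and Lox from −0.36 to 0.66. Depth limits Tagln, Acta2 and Thy1 most, whose lowest lines held 5, 13 and 27 reads.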
